A study of Mus musculus with 24 samples.

Results

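Procollagen cleavage and collagen crosslinking enzymes were described here as 10 genes, taken by name from the rows of the 24 count files: the C-proteinase *Bmp1*, the N-proteinases *Adamts2*, *Adamts3* and *Adamts14*, the proteinase enhancers *Pcolce* and *Pcolce2*, and the lysyl oxidases *Lox*, *Loxl1*, *Loxl2* and *Loxl3*. All 10 were found among the 55335 genes of each file, and all 10 passed the filter on low counts in every comparison. The libraries were bulk RNA-seq of primary osteoblast (OB) cultures grown from parietal bones, the paired flat bones of the skull roof, of mouse pups 4 to 5 days old. WT cultures came from mice without the mutation. Het cultures came from mice with 1 G610C allele of *Col1a2* (Col1a2tm1Mcbr), a knock-in that replaces a glycine of the collagen triple helix by cysteine. The G610C line was kept on the C57BL/6J background. Every culture received osteogenic differentiation treatment in a medium with ascorbic acid 2-phosphate, and was harvested for RNA on day 8, day 14 or day 21 counted from seeding. Each of the 6 groups, WT or Het at 1 of the 3 days, held 4 libraries, numbered replicates 1 to 4.

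Wells of 1 preparation hold cells from the same pool of several pups of 1 genotype. The p-values therefore measure the spread between labelled libraries, part of which may be technical. Within a preparation, genotype and pool cannot be told apart. The methods of the study describe a pair of experiments that used different litters, plating densities and early oxygen levels, and the labels do not say which replicate belongs to which. The wells per genotype and day in that description are fewer than the 4 labelled libraries, so n counts labelled libraries here, and whether each came from a culture of its own is not known. Counts per gene cannot show the amino acid substitution, so the genotype was taken from the labels alone.

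OBs secrete type I collagen as procollagen, which carries a globular propeptide at each end of the triple helix. N-proteinases of the ADAMTS family remove the N-propeptide and BMP1, the prototype of the tolloid proteinases, removes the C-propeptide with help from the PCOLCE glycoproteins, after which the molecules assemble into fibrils. Lysyl oxidases are copper enzymes that convert lysine and hydroxylysine side chains to reactive aldehydes, from which the covalent crosslinks of bone collagen form, and BMP1 also activates pro-LOX.

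Depth was 17140202 to 59734231 reads assigned to genes per library, with a median of 48340136, and 17140202 to 25825762 in the 6 libraries of replicate 1. Replicate 1 stood apart: its root mean square log2 distance to another library of the same group was 0.439 to 0.739 over 14890 genes, against 0.154 to 0.432 between replicates 2, 3 and 4. Calls that change without replicate 1 are therefore given with and without it. The label of the cells was checked with 6 osteoblast markers, all of which were detected in every group. Their summed RQ was 17.4 to 48.0 in WT at day 8 and 101 to 186 in the same genotype later. *Col1a1* alone had an RQ of 16.7 to 46.3 in WT at day 8, so the sum rests mainly on it. In the same libraries 4 chondrocyte markers had a summed RQ of 18.6 to 32.5. RQ (relative quantity) is the count of a gene per geometric mean of the housekeeping counts of *Actg1*, *Actb*, *Mrfap1* and *Sdha*, taken within each library, which is the scale of the study. In bulk libraries, fewer cells of a type and less RNA per cell cannot be told apart.

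Levels were compared between genes only as RQ per kilobase of exon. In WT at day 8, the procollagen C-proteinase enhancer *Pcolce* stood highest at 0.389 ± 0.0254 RQ per kb (SD, n = 4), followed by *Lox* at 0.346 ± 0.0252. *Adamts3* stood lowest at 0.00164 ± 9.15e-05. The order between them was *Loxl2*, *Loxl3*, *Loxl1*, *Bmp1*, *Adamts14*, *Pcolce2* and *Adamts2*. Neighbours whose libraries overlapped at this day were *Pcolce* and *Lox*, *Loxl2* and *Loxl3*, *Loxl3* and *Loxl1*, and *Pcolce2* and *Adamts2*.

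At days 14 and 21 in WT, *Pcolce* (0.567 ± 0.0388 RQ per kb, SD, n = 8) and *Lox* (0.480 ± 0.0606) still led and overlapped, and *Adamts3* was again lowest (0.00194 ± 0.000162). *Bmp1* (0.0818 ± 0.00581) stood above *Loxl1* (0.0510 ± 0.00662) without overlap, the reverse of their order at day 8. In Het cultures at days 14 and 21, *Bmp1* (0.0678 ± 0.00970 RQ per kb) and *Loxl1* (0.0637 ± 0.00879) overlapped. These orders are descriptions of levels and were not tested.

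**Figure D1:**
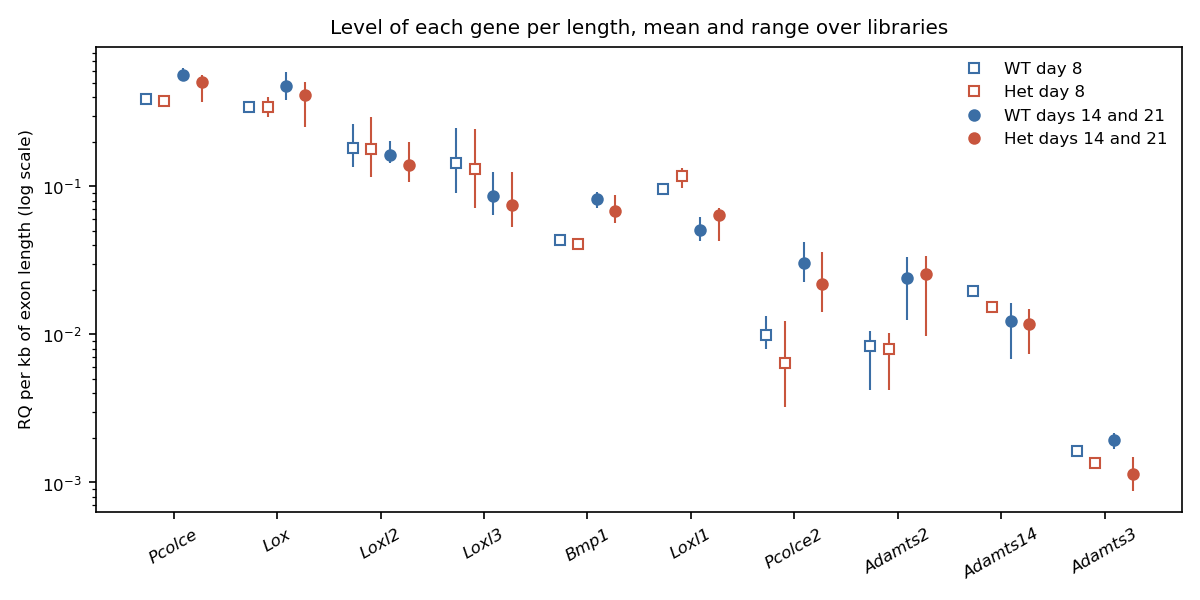
RQ per kilobase of exon (log axis) of the 10 genes in WT and Het at day 8 (n = 4) and at days 14 and 21 (n = 8); symbols are means and lines run from the lowest to the highest library. *Pcolce* and *Lox* lie at the top in all 4 groups and *Adamts3* at the bottom, with WT means of 0.389, 0.346 and 0.00164 at day 8.

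The first comparison asked how the mRNA of these enzymes changed as the cultures matured, with WT and Het weighted equally. From day 8 to days 14 and 21, 5 of the 10 genes rose (*Bmp1*, *Adamts2*, *Pcolce*, *Pcolce2* and *Lox*) and 3 fell (*Adamts14*, *Loxl1* and *Loxl3*), by edgeR's quasi-likelihood test with Benjamini-Hochberg adjustment at 0.05. The changes ran from a 3.18-fold rise of *Pcolce2* to a 1.87-fold fall of *Loxl1*. The share of all 20434 tested genes called in this comparison was 58.3% (40.9% higher, 17.4% lower), so 8 called members is not far from what the whole transcriptome did. The median log2 fold change of all genes was 0.16 on this scale, -0.02 with TMM scaling and -0.14 with scaling by total count. Markers of other cells moved over the same days. Of 6 macrophage and osteoclast markers 5 rose (all but *Acp5*), with a summed RQ of 0.696 to 0.759 in WT at day 8 and 5.66 to 6.60 at day 21. Of 4 chondrocyte markers 3 fell, from a summed RQ of 18.6 to 32.5 in WT at day 8 to 3.26 to 7.54 at day 21, and 3 of 4 tested muscle markers fell. All 6 osteoblast markers rose. The part of these markers in the changes of the 10 genes was not tested.

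The C-proteinase *Bmp1* (chr14:70474558-70520234, minus strand, GRCm38) rose in all 16 pairs of a later and a day 8 library of the same genotype and replicate number. In WT its RQ was 0.389, 0.392, 0.384 and 0.378 in replicates 1 to 4 at day 8. At day 14 the same replicates gave 0.637, 0.760, 0.715 and 0.687, and at day 21 they gave 0.813, 0.716, 0.740 and 0.735. No later library of either genotype reached down to a day 8 library, and the fitted change was 1.77-fold (log2 0.82, SE 0.06, edgeR adjusted p = 1.4e-10). Non-overlap of this kind was found for 3 of the 10 members (*Bmp1* and *Pcolce2* higher, *Loxl1* lower) and for 16.9% of the 14890 genes that averaged 50 or more counts.

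The 3 N-proteinases went 3 ways. *Adamts2* (chr11:50602084-50807573, plus strand), the enzyme whose loss causes dermatosparaxis in cattle and mice, rose 3.02-fold (log2 1.59, SE 0.22, edgeR adjusted p = 2.57e-06), while *Adamts14* (chr10:61197112-61273438, minus strand) fell by 0.55 on the log2 scale (SE 0.07, edgeR adjusted p = 1.58e-06). *Adamts3* (chr5:89677087-89883334, minus strand), which also processes the lymphatic growth factor VEGF-C, had a log2 difference of -0.01 (SE 0.08, edgeR adjusted p = 0.92). Fits of a single genotype and other scales gave other values. In WT alone *Adamts3* rose by 0.24 (edgeR adjusted p = 0.0144), and in Het alone the difference was -0.26 (edgeR adjusted p = 0.201). The test of a change in the Het effect between these days did not pass for *Adamts3* (edgeR adjusted p = 0.475). Under TMM or total count scaling *Adamts3* was called lower in both genotypes together (-0.20 and -0.32).

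*Adamts2* had RQ values of 0.0394, 0.0943, 0.0987 and 0.0781 in WT replicates 1 to 4 at day 8, and 0.167, 0.310, 0.288 and 0.231 at day 21. *Adamts14* went the other way, from 0.0942, 0.109, 0.104 and 0.105 to 0.0354, 0.0554, 0.0490 and 0.0478. Replicate 1 was the lowest of the 4 libraries for both genes at both days, yet each gene moved the same way in it as in the others. Per kilobase, the median share of *Adamts14* in the reads of the N-proteinases fell from 65.4% at day 8 to 38.6% at day 14 and 24.4% at day 21 in WT, and that of *Adamts2* went from 29.3% to 56.2% and 70.8%. In Het the medians were 59.7%, 34.2% and 26.3% for *Adamts14* and 34.7%, 63.0% and 71.2% for *Adamts2*. The leading N-proteinase transcript was thus *Adamts14* in every day 8 library and *Adamts2* in every day 21 library.

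Since these 3 genes of related function differed most in course, the 250 bases before their RefSeq starts are printed 5′ to 3′ on the strand of the gene (GRCm38.p6; chr11:50601835-50602084 plus strand for *Adamts2*, chr5:89883335-89883584 minus strand for *Adamts3*, chr10:61273420-61273669 minus strand for *Adamts14*). Capitals mark the GC box letters GGGCGG on either strand (CCGCCC).
Adamts2: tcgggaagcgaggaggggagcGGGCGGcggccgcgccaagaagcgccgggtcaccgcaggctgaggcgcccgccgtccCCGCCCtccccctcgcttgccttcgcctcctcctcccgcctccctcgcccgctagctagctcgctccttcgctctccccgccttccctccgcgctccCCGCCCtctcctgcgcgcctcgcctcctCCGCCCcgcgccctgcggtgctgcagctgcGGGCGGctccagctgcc
Adamts3: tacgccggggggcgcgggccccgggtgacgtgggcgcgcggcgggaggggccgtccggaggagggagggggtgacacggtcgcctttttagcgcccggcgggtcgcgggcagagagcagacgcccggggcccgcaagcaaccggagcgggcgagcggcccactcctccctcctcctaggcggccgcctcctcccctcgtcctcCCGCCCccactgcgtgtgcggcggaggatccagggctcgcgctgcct
Adamts14: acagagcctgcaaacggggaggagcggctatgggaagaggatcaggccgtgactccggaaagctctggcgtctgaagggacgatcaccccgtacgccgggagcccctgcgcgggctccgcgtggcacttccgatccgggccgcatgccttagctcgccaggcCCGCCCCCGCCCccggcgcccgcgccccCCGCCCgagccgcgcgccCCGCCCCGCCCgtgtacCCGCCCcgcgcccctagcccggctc
The window of *Adamts2* held 5 GC boxes, that of *Adamts14* held 6, of which some share bases, and that of *Adamts3* held 1. GC content was 78% in *Adamts2* and *Adamts3* and 76.4% in *Adamts14*, against a median of 52.4% over the 32851 windows in the table. The windows of *Pcolce* and *Pcolce2*, the other members in that table, held 1 GC box each, and 32.7% of all windows held at least 1. None of the 5 windows held TATAAA (12.4% of all windows on either strand), CCAAT (33.8%), the RUNX letters ACCACA (14.0%) or the C/EBP-ATF letters TGATGNAAT (0.816%). These are matches of letters, and no binding was measured.

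Both enhancers rose, *Pcolce2* (chr9:95637601-95698096, plus strand) far more than *Pcolce* (chr5:137605103-137613784, minus strand). *Pcolce2* RQ in WT was 0.0616, 0.0409, 0.0372 and 0.0426 in replicates 1 to 4 at day 8, 0.116, 0.110, 0.105 and 0.111 at day 14, and 0.196, 0.147, 0.168 and 0.165 at day 21. Every WT library thus lay above those of the day before. The fitted rise was 3.18-fold for *Pcolce2* (log2 1.67, SE 0.19, edgeR adjusted p = 1.08e-07) and 1.40-fold for *Pcolce* (log2 0.49, SE 0.06, edgeR adjusted p = 2.35e-07). Within replicate 1 the log2 difference of *Pcolce2* was 1.21 and within replicates 2 to 4 it was 1.95. *Pcolce2* remained the minor enhancer, with a median of 2.26%, 3.82% and 6.28% of the enhancer reads per kilobase at days 8, 14 and 21 in WT.

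The 250 bases before the RefSeq start of *Pcolce2* (chr9:95637378-95637627, plus strand, GRCm38.p6) are printed because this member rose most, with the GC box in capitals.
Pcolce2: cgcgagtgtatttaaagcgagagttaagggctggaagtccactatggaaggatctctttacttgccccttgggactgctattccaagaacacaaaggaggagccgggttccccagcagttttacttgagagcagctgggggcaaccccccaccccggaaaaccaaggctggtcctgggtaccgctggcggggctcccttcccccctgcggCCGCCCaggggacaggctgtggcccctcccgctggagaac
Its GC content was 61.2%, lower than that of the windows of the 3 N-proteinases.

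Among the lysyl oxidases, *Loxl1*, which is best known for its part in elastic fibre formation, fell in all 16 pairs. Its RQ was 0.328, 0.323, 0.311 and 0.313 in WT replicates 1 to 4 at day 8, against 0.204, 0.173, 0.180 and 0.184 at day 14 and 0.147, 0.169, 0.141 and 0.148 at day 21. No later library of either genotype overlapped with day 8, and the fitted fall was 1.87-fold (log2 -0.90, SE 0.07, edgeR adjusted p = 2.69e-10). *Lox* (minus strand of chromosome 18), the founding member and the most abundant of the family, rose 1.30-fold (log2 0.37, SE 0.09, edgeR adjusted p = 0.00152), in 15 of 16 pairs. The call for *Lox* was lost with scaling by total count (log2 0.07) and in Het alone (0.28), and the log2 difference was 0.09 within replicate 1 and 0.46 within replicates 2 to 4.

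*Loxl3* (chr6:83034173-83052562, plus strand) fell by 0.78 on the log2 scale (SE 0.22, edgeR adjusted p = 0.00404), in 16 of 16 pairs. Its day 8 RQ in WT was 1.13 in replicate 1 but 0.484, 0.417 and 0.619 in replicates 2 to 4, so replicate 1 stood far above the rest, and in Het the values were 1.12, 0.329, 0.393 and 0.588. The log2 difference was -1.06 within replicate 1 and -0.56 within replicates 2 to 4, and in Het alone the edgeR adjusted p was 0.0544. *Loxl2* (chr14:69609068-69695834, plus strand), which also crosslinks the type IV collagen of basement membranes, showed the same split, with 1.42, 0.834, 0.727 and 0.964 in WT at day 8. Its log2 difference was -0.26 (SE 0.15, edgeR adjusted p = 0.154), or -0.75 within replicate 1 and -0.01 within replicates 2 to 4, and it was called lower with TMM (-0.41) and total count scaling (-0.55). Of the exon bases of *Loxl3*, 11.6% lie opposite exons of *Htra2*, and reads of the pair cannot be told apart there if strand was not used in counting.

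**Figure D2:**
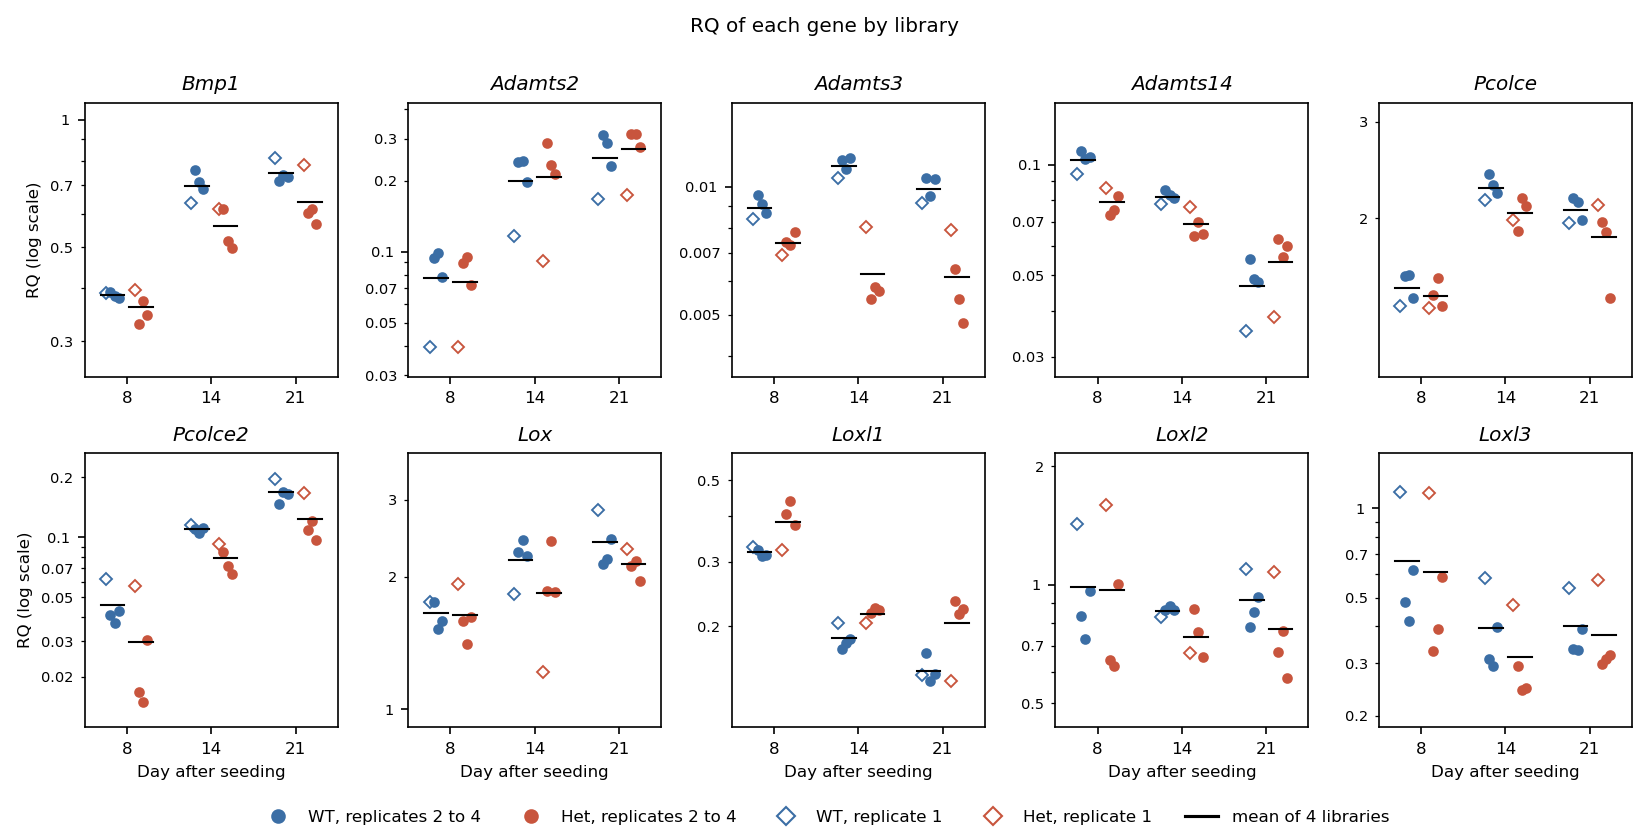
RQ of each of the 10 genes (log axis) by day, 1 point per library, with WT in blue, Het in red, replicate 1 as open diamonds and group means as bars. *Bmp1* and *Pcolce2* climb from day 8, *Loxl1* and *Adamts14* decline, and replicate 1 stands above the other libraries for *Loxl2* and *Loxl3* at day 8.

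Between day 14 and day 21 of culture, *Pcolce2* rose further (1.55-fold, log2 0.64, SE 0.10, edgeR adjusted p = 0.000575, 8 of 8 pairs) and *Adamts14* fell further. The other 8 members did not pass the test, against 19.3% of 19839 tested genes that did (13.3% higher, 5.94% lower). *Adamts14* RQ was 0.0753 ± 0.00817 (SD, n = 8) at day 14 and 0.0506 ± 0.00987 at day 21, with no overlap between the days (log2 -0.57, SE 0.11, edgeR adjusted p = 0.00234). Non-overlap between these days was found for 3.04% of genes. *Adamts2* was higher at day 21 in 8 of 8 pairs, but its log2 difference of 0.36 (SE 0.22) had an edgeR adjusted p of 0.282. With replicate number as a block it was 0.40 and passed (edgeR adjusted p = 0.00204), as did 23.1% of genes, and without replicate 1 it was 0.30 and passed (edgeR adjusted p = 0.0209), as did 28.9% of genes. In Het alone, with 8 libraries, 0 members passed in edgeR and 2 had an unadjusted p under 0.05, against 69 genes (0.374%) and 2905 genes.

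The main comparison of the study asked how OBs that express the G610C chain differ from WT once the cultures have matured, at days 14 and 21 together. In Het cultures *Adamts3*, *Pcolce2* and *Bmp1* were lower and *Loxl1* was higher, with *Adamts3* changed most (1.71-fold lower). These 4 of 10 members (1 higher, 3 lower) stand against 16.1% of 19839 tested genes (7.26% higher, 8.88% lower) by edgeR with day as a covariate. The median log2 difference over the 10 members was -0.21, against -0.05 over all genes. Each of the 4 kept its direction under every alternative that was run. The call itself held under the removal of replicates 2, 3 or 4 for *Adamts3* alone: without replicate 4, for example, the edgeR adjusted p was 0.0353 for *Adamts3*, while *Bmp1* (log2 -0.23), *Pcolce2* (-0.39) and *Loxl1* (0.29) no longer passed.

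*Adamts3* was lower in Het in all 8 pairs of libraries with the same day and replicate number. In WT its RQ was 0.0105, 0.0116, 0.0110 and 0.0117 in replicates 1 to 4 at day 14 and 0.00917, 0.0105, 0.00952 and 0.0104 at day 21. In Het it was 0.00805, 0.00544, 0.00580 and 0.00567 at day 14 and 0.00792, 0.00640, 0.00544 and 0.00477 at day 21. The highest Het library, replicate 1 of day 14, lay below the lowest WT library, replicate 1 of day 21. Replicate 1 had the smallest gap between the genotypes at both days. *Adamts3* was the only member without overlap, a pattern seen in 1.08% of 14890 genes. At the separate days, *Bmp1*, *Adamts3*, *Adamts14* and *Pcolce2* were lower in Het without overlap at day 14, where 11.7% of genes did not overlap, and *Adamts3* alone at day 21, where 13.7% did not.

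The fitted log2 difference of *Adamts3* was -0.78 (SE 0.11, edgeR adjusted p = 0.000435). The exact two-sided permutation test over the 8 against 8 libraries gave the smallest p it allows (p = 0.000155). Groups without overlap always give that p, so it adds nothing to the non-overlap above, and the regroupings ignored day and replicate number. Within replicate 1 the mean log2 difference was -0.30, and within replicates 2 to 4 it was -0.95. These values rest on low counts, 71 to 328 reads of *Adamts3* per library. Its share of the N-proteinase reads per kilobase was 5.16% at day 14 and 4.78% at day 21 in WT, and 2.79% and 2.35% in Het (medians).

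*Pcolce2*, the enhancer that rose as the cultures matured, was 1.39-fold lower in Het (log2 -0.48, SE 0.10, edgeR adjusted p = 0.00703). At day 14 the Het libraries had RQ values of 0.0925, 0.0840, 0.0719 and 0.0652, below all 4 WT libraries (0.105 to 0.116). At day 21 they had 0.168, 0.109, 0.121 and 0.0968, and replicate 1 overlapped with WT (0.147 to 0.196). Het was lower in 8 of 8 pairs, and the call was lost when all 24 libraries entered the fit. The related *Pcolce* had RQ values of 2.17 ± 0.148 (SD, n = 8) in WT and 1.94 ± 0.233 in Het, a log2 difference of -0.16 (SE 0.07, edgeR adjusted p = 0.131), which passed without replicate 1 (-0.21, edgeR adjusted p = 0.042).

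*Bmp1* was 1.21-fold lower in Het (log2 -0.27, SE 0.07, edgeR adjusted p = 0.0192). At day 14 its RQ was 0.616, 0.617, 0.518 and 0.499 in Het replicates 1 to 4, and at day 21 it was 0.781, 0.602, 0.614 and 0.567. Het was lower in 8 of 8 pairs, without overlap at day 14, but replicate 1 of day 21 lay within the WT range (0.716 to 0.813). The mean log2 difference was -0.05 within replicate 1 and -0.35 within replicates 2 to 4.

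The 2 N-proteinases *Adamts2* and *Adamts14* did not pass the test. *Adamts2* had 0.224 ± 0.0629 RQ (SD, n = 8) in WT and 0.239 ± 0.0781 in Het (log2 0.09, SE 0.21, edgeR adjusted p = 0.842), and *Adamts14* had 0.0643 ± 0.0195 and 0.0616 ± 0.0112 (log2 -0.02, SE 0.11, edgeR adjusted p = 0.94). For *Adamts14* the pooled value hid opposite differences at the separate days. At day 14 Het libraries had 0.0767, 0.0639, 0.0698 and 0.0649 against 0.0780, 0.0853, 0.0825 and 0.0813 in WT, lower in 4 of 4 pairs. At day 21 they had 0.0385, 0.0629, 0.0560 and 0.0600 against 0.0354, 0.0554, 0.0490 and 0.0478, higher in 4 of 4 pairs.

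The difference between these 2 genotype effects of *Adamts14*, a comparison added after its values had been seen, was 0.47 on the log2 scale (SE 0.18, unadjusted p = 0.0151) and did not pass in edgeR, where the percentage of genes called was 0 and 452 genes had an unadjusted p under 0.05. DESeq2 also called 0 genes. Without replicate 1 it was 0.56 and passed (edgeR adjusted p = 0.0402), as did 0.0661% of genes.

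*Loxl1* was the single member that was higher in Het (1.26-fold, log2 0.33, SE 0.09, edgeR adjusted p = 0.0189). At day 14 the Het libraries had RQ values of 0.204, 0.218, 0.223 and 0.221, and at day 21 they had 0.141, 0.234, 0.216 and 0.223. Replicates 2 to 4 lay above every WT library of replicates 1 to 4 at both days, while replicate 1 of Het was close to replicate 1 of WT (0.204) at day 14 and lay at the bottom of the WT range at day 21. The mean log2 difference was accordingly -0.03 within replicate 1 and 0.43 within replicates 2 to 4.

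The other lysyl oxidases had values below WT that did not pass the test: *Lox* -0.21 (SE 0.11, edgeR adjusted p = 0.211), *Loxl2* -0.23 (SE 0.11, edgeR adjusted p = 0.159) and *Loxl3* -0.21 (SE 0.19, edgeR adjusted p = 0.491). *Lox* was lower in 8 of 8 pairs, and its lowest library was replicate 1 of Het at day 14 (RQ 1.21, against 1.83 to 2.43 in WT at that day). *Loxl2* and *Loxl3* were lower in 7 of 8 pairs each. Without replicate 1, *Loxl2* (-0.27, edgeR adjusted p = 0.017) and *Loxl3* (-0.27, edgeR adjusted p = 0.0165) passed, and 7 of the 10 members were called, against 39.4% of all genes tested in that fit. *Loxl2* also passed without replicate 1 of Het at day 21 alone (-0.32, edgeR adjusted p = 0.0159). With replicate number as a block 5 members passed, with *Loxl3* added (-0.22, edgeR adjusted p = 0.0309), against 23.6% of genes.

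**Figure D3:**
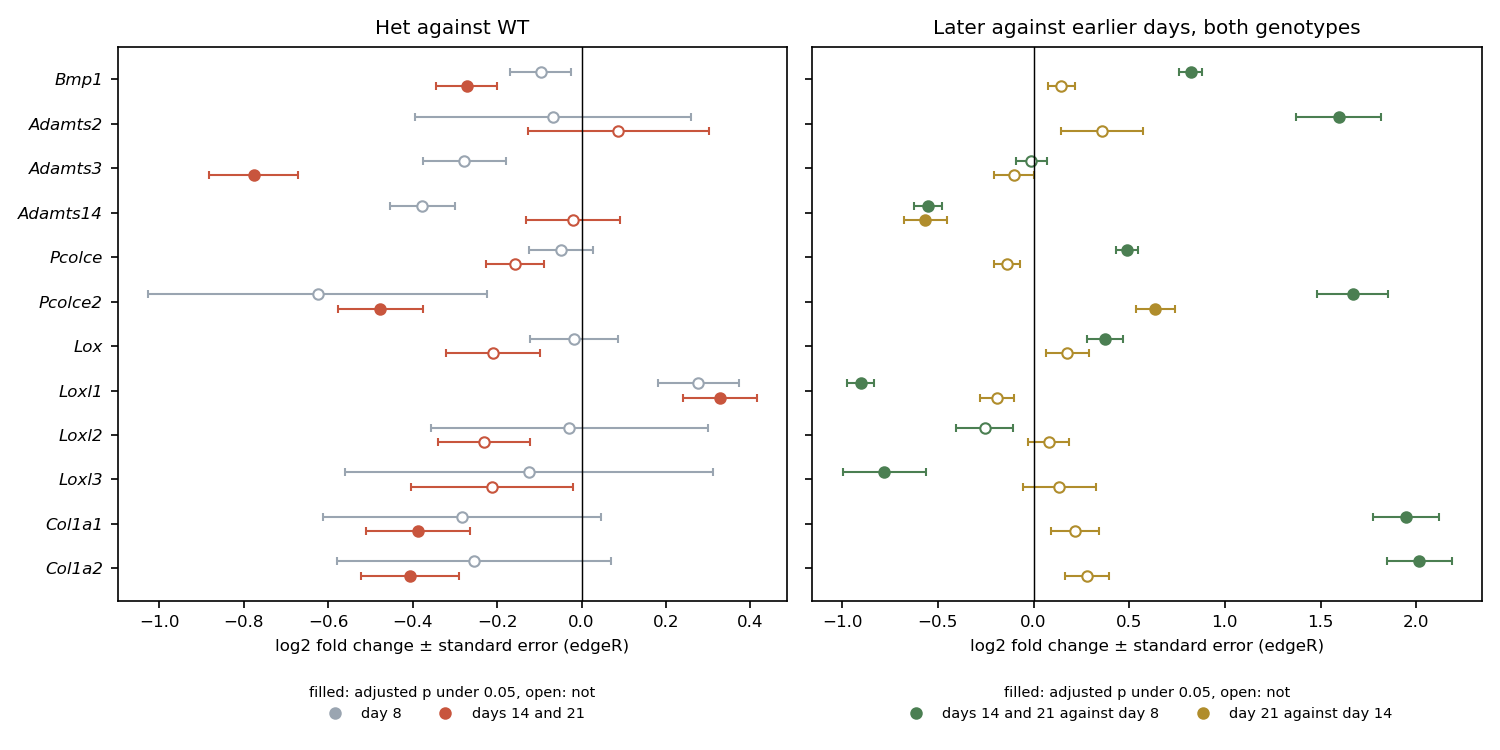
Fitted log2 fold changes with standard errors (edgeR) of the 10 genes and of *Col1a1* and *Col1a2*; the left panel gives Het against WT at day 8 and at days 14 and 21, the right panel later against earlier days. Filled points passed at an adjusted p of 0.05. *Adamts3* at -0.78 lies farthest from 0 in the genotype comparison of the later days, and *Loxl1* at 0.33 is the one filled point above 0.

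**Figure D4:**
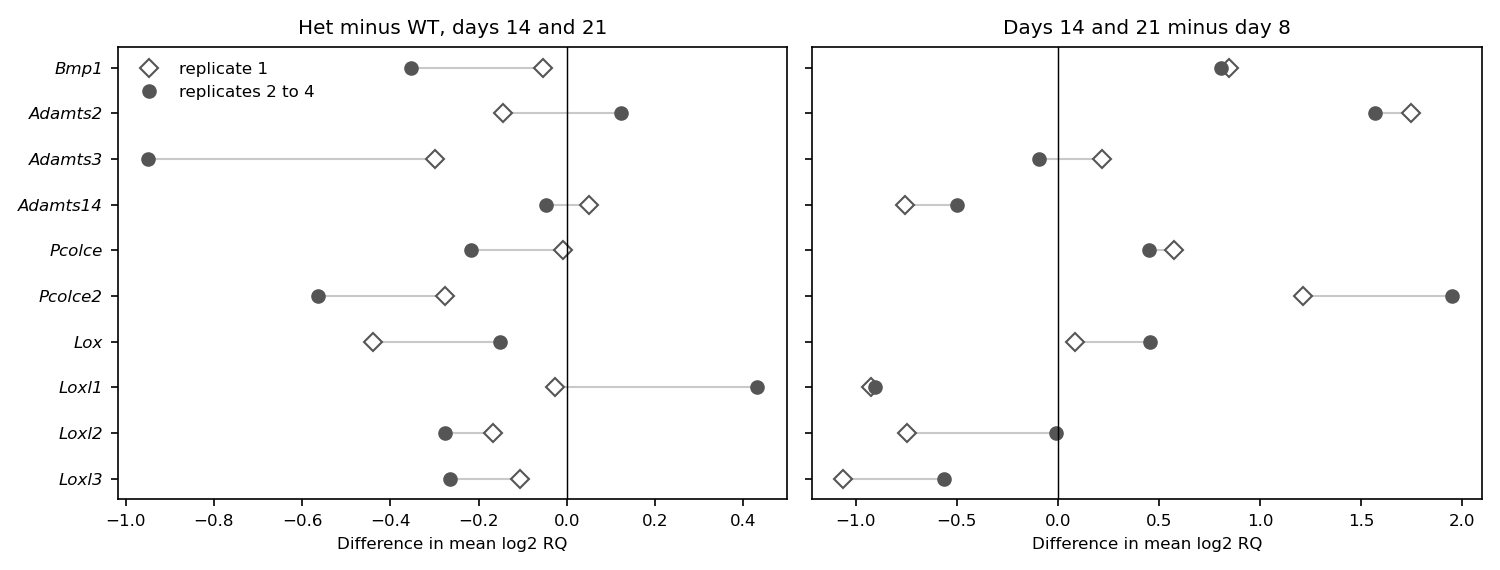
Mean log2 difference of RQ within replicate 1 (open diamonds) and within replicates 2 to 4 (filled circles) for each of the 10 genes, Het minus WT at days 14 and 21 on the left and days 14 and 21 minus day 8 on the right. On the left *Adamts3* lies at -0.30 in replicate 1 and at -0.95 in the others, and *Loxl1* at -0.03 and 0.43.

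Markers of other cells moved with the genotype at the same days. Of 6 macrophage and osteoclast markers 4 were higher in Het, the macrophage genes *Cd68*, *Csf1r*, *Adgre1* and *Lyz2*. The osteoclast genes *Acp5* and *Ctsk* did not pass, each with a log2 difference of -0.12 (edgeR adjusted p = 0.551 and 0.403). The summed RQ of all 6 at day 21 was 5.66 to 6.60 in WT and 7.20 to 15.5 in Het. Of 6 osteoblast markers 4 were lower in Het. Of 4 chondrocyte markers 1 was lower, and their summed RQ at day 14 was 5.75 to 19.6 in WT and 1.32 to 21.1 in Het. The fibroblast and tendon, endothelium and muscle lists had 1 gene higher each, of 4, 3 and 4 tested. Of 4 neutrophil markers only 1 was tested, *Cd33*, which did not pass (log2 0.63, edgeR adjusted p = 0.093). Of 4 adipocyte markers 2 were tested and neither passed. *S100a9* was at 0 in all 6 groups and *Myod1* in 5 of them. The part of these markers in the differences of the 10 genes was not tested.

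At day 8 the question was whether the enzymes already differed between the genotypes early in culture. No member passed in edgeR, where the percentage of genes called was 0 of 18222. Of the members, 3 had an unadjusted p under 0.05 (*Adamts14*, *Adamts3* and *Loxl1*), as had 1817 of all genes, and DESeq2 called 443 genes, *Adamts14* among them. *Adamts14* RQ was 0.0866, 0.0729, 0.0754 and 0.0823 in Het replicates 1 to 4 and 0.0942, 0.109, 0.104 and 0.105 in WT. The Het libraries all lay below WT, with a log2 difference of -0.38 (SE 0.08, edgeR adjusted p = 0.173).

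*Adamts3* also had no overlap at day 8, with 0.00736 ± 0.000377 RQ (SD, n = 4) in Het and 0.00892 ± 0.000497 in WT (log2 -0.28, edgeR adjusted p = 0.38). The exact permutation test of 4 against 4 libraries gave its smallest possible p of 0.0286 for both genes, which non-overlap alone fixes. Non-overlap at day 8 was found for 4.87% of genes. Without replicate 1 of WT alone *Adamts14* passed (-0.42, edgeR adjusted p = 0.0498), and without replicate 1 of both genotypes 3 members passed: *Adamts14* (-0.46, edgeR adjusted p = 0.0011), *Pcolce2* (-0.95, edgeR adjusted p = 0.0157) and *Loxl1* (0.37, edgeR adjusted p = 0.00539). Of all genes 18.7% passed in that fit. The same 3 members passed without replicate 1 of Het alone, a fit for which the share of all genes is not given here. For *Pcolce2* at day 8 the Het libraries had RQ values of 0.0567, 0.0168, 0.0149 and 0.0306, so replicate 1 lay among the WT libraries and the other 3 below all of them.

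Whether the Het difference itself changed between day 8 and the later days was tested with an interaction term over all 24 libraries. No member passed, against 0.171% of 20434 genes that did in edgeR. *Adamts3* came nearest, with a log2 difference 0.50 lower at the later days (SE 0.16, unadjusted p = 0.0053, edgeR adjusted p = 0.475), and *Adamts14* had 0.36 (SE 0.15, unadjusted p = 0.0274). DESeq2 called 90 genes, *Adamts3* among them. Without replicate 1, *Adamts3* (-0.67) and *Adamts14* (0.41) both passed in edgeR, as did 4.72% of genes.

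The enzymes were next set against type I collagen, as reads per 1000 of its reads (the geometric mean of *Col1a1* and *Col1a2*), a ratio that needs no scaling between libraries. Type I collagen mRNA itself rose as the cultures matured (log2 1.95 for *Col1a1* and 2.02 for *Col1a2*) and was lower in Het at days 14 and 21 (-0.39, edgeR adjusted p = 0.0442, and -0.41, edgeR adjusted p = 0.0268). Relative to collagen, 9 of the 10 members were lower at days 14 and 21 than at day 8 by the exact permutation test, as were 93.6% of 14890 genes (3.11% were higher). *Adamts2*, at -0.43 (exact permutation p = 0.013), lost its call without replicate 1. The other 8 did not overlap between the days, a count for which the share of all genes was not taken. *Pcolce2* was the exception, with a log2 difference of -0.28 (exact permutation p = 0.388). Its ratio ran from 0.893 to 3.91 reads per 1000 collagen reads in WT at day 8 and from 0.664 to 1.43 later, and the log2 difference was -1.45 within replicate 1 and 0.11 within replicates 2 to 4.

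Between the genotypes at days 14 and 21, *Loxl1* was 1.62-fold higher in Het relative to collagen (exact permutation p = 0.00886) and *Adamts2* 1.36-fold higher (exact permutation p = 0.037), where 44.7% of genes were also higher. *Adamts3* was 1.32-fold lower relative to collagen (exact permutation p = 0.0429), as were 0.598% of genes. Its ratio was 0.0597 to 0.128 reads per 1000 collagen reads in WT and 0.0430 to 0.103 in Het, and the groups overlapped. Leaving out 1 library or replicate moved the number of members past 0.05 between 0 and 4: *Adamts2* lost its call in 15 of these settings and *Adamts3* in 13, and *Loxl1* lost it without replicate 3 or 4. The 7 remaining members had log2 differences between -0.11 and 0.36 that did not pass with all libraries. Of these, *Lox* passed without replicate 1 (0.33, against 0.16 with it and -0.35 within it) and *Pcolce* passed without replicate 1 of WT at day 14 (0.33, against 0.22).

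**Figure D5:**
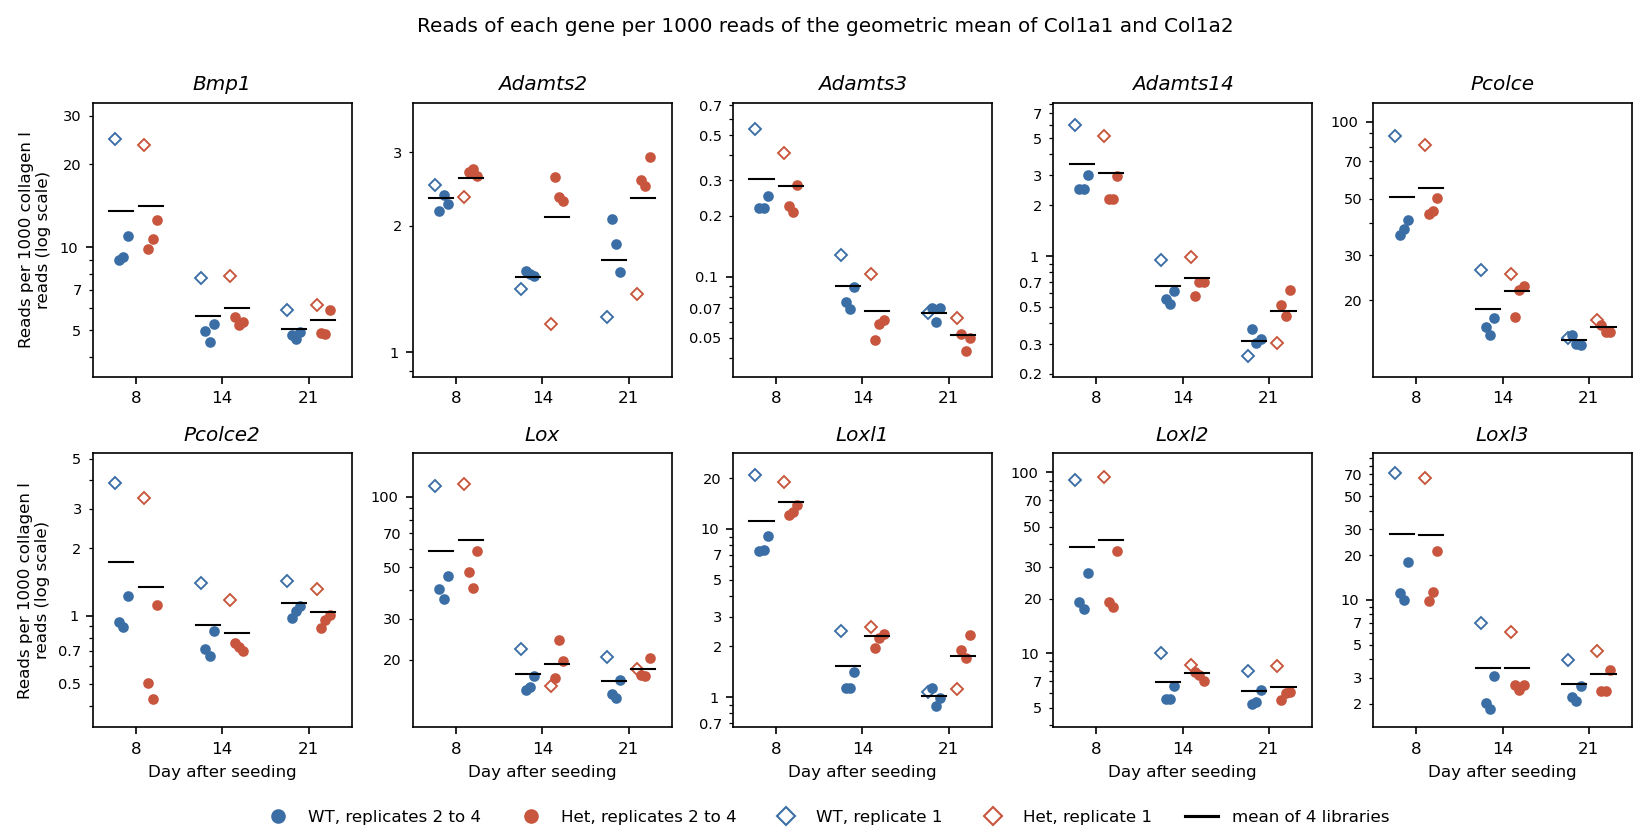
Reads of each of the 10 genes per 1000 type I collagen reads (log axis) by day, 1 point per library, WT in blue, Het in red, replicate 1 as open diamonds and group means as bars. The ratios of 8 genes lie lower at the later days than at day 8 without overlap. The share of all genes without overlap was not taken, and 93.6% of 14890 genes were lower by the exact permutation test. The ratios of *Adamts2* and *Pcolce2* overlap between the days, and *Adamts3* in Het lies between 0.0430 and 0.103 at days 14 and 21.

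Other genes of the pathway were counted from lists, named where they passed. At days 14 and 21, Het was higher for *Tll1*, a further C-proteinase of the tolloid family (log2 1.11, SE 0.36, edgeR adjusted p = 0.0437), 1 of 2 tested proteinases and lysyl oxidases outside the 10. *Tll1* rested on 28 to 864 reads per library, and its Het RQ at day 14 ran from 0.00317 to 0.0280. Of 4 convertases that activate proenzymes, *Furin* was lower (log2 -0.23, edgeR adjusted p = 0.0105). The 8 extracellular partners, had edgeR adjusted p values of 0.0821 to 0.866. Of 8 genes of lysine hydroxylation and copper supply 3 were lower: *Plod2*, the telopeptide lysyl hydroxylase (-0.52, edgeR adjusted p = 0.0178), *P3h3* (-0.23) and its partner *P3h4* (-0.25). Of 6 fibrillar collagens 3 were lower, *Col1a1*, *Col1a2* and *Col11a1* (-0.67, edgeR adjusted p = 0.0106). At day 8 none of these genes passed.

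With maturation, *Loxl4*, the lysyl oxidase outside the 10, rose by 2.87 on the log2 scale (edgeR adjusted p = 7.42e-12), more than any of them. The convertases *Pcsk6* (3.14) and *Pcsk5* (1.19) rose, 2 of 4. Of 8 extracellular partners 3 rose (*Sparc* 1.46, *Postn* 1.12 and *Fbln5* 0.38) and 2 fell (*Fn1* -1.13 and *Thbs1* -0.75). Of the lysine hydroxylation and copper supply genes 5 rose, led by *Plod1* (0.82), the helical lysyl hydroxylase, and 3 fell (*Plod2* -0.41, *Plod3* -0.49 and the copper transporter *Atp7a* -0.24). Of 6 fibrillar collagens 5 rose. Between days 14 and 21 *Sparc* rose (0.37), and *Plod3* (-0.21), *Fkbp10* (-0.36) and *P3h4* (-0.24) fell.

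The genes whose pattern lay nearest to each member were found by the root mean square difference of log2 RQ over the 24 libraries, each gene centred on its own mean, among 14890 genes. *Bmp1* lay nearest to the zinc transporter gene *Slc39a13* (0.0915, where the spread of *Bmp1* about its own mean was 0.423). *Adamts2* lay nearest to *Wnt10b* (0.217 of a spread of 0.914), and *Adamts14* to *1190005I06Rik* (0.161 of 0.420). For *Adamts3* the nearest were *Mpp2*, *Emilin1* and *Gm17028* (0.169 for the first, of 0.368). *Pcolce* lay nearest to *Gpsm2* (0.0836 of 0.269), *Pcolce2* to *Fry* (0.246 of 0.993), *Lox* to *Heca* (0.104 of 0.285), *Loxl1* to *Ttyh3* (0.136 of 0.486) and *Loxl3* to *Ccn1* (0.167 of 0.580). The nearest of *Loxl2*, *Mir6950*, shares 7 exon bases with it on the same strand, and the next were *Chsy3* and *Pdlim5*. Among the members themselves, *Bmp1* and *Pcolce* were closest (0.244), then *Pcolce* and *Lox* (0.259).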

How the data were processed

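Gene counts of 24 libraries were used as deposited. The counts were made by the authors; the submitters' processing notes name cutadapt 2.5, STAR 2.73a, Subread featureCounts 1.6.4 and mm10, while the annotation release, strand rule and treatment of multimapping reads are not given in the sources used here. Coordinates came from GENCODE mouse release 21 and promoters from RefSeq (GRCm38.p6). Libraries were scaled by the housekeeping genes (geometric mean over *Sdha*, *Mrfap1*, *Actb* and *Actg1*), and all genes left by filterByExpr were tested with edgeR 4.0.16 (quasi-likelihood F-test, R 4.3.3, Benjamini-Hochberg, threshold 0.05). DESeq2 1.42.0, TMM, DESeq2 size factors, total count, other filters, leaving out libraries or a housekeeping gene and a replicate block were alternatives. Ratios to collagen were compared with two-sided exact permutation tests over all regroupings of the libraries (numpy 2.4.6), unadjusted. The fits were tested on simulated data in which replicate 1 differed from the others only in depth. That test cannot show how the fits handle the distance of replicate 1. All 10 members were named, pathway genes where they passed, and the 3 nearest genes of each member were sought. The members and lists were chosen with earlier results of these data known.

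No pair of replicates agreed within sampling noise (lowest chi-square per degree of freedom 5.14 over 36 pairs). Replicate numbers came from the labels. Deviations from group means of the 12 same-numbered WT and Het pairs correlated at 0.193 to 0.713 (median 0.453). The 36 pairs with different numbers gave -0.670 to 0.567 (median -0.124), so the ranges overlapped. Replicate 1 stood apart, which by itself can raise the correlation of same-numbered pairs. The check therefore cannot show whether the other numbers pair the libraries, and pairs between days were not checked.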

Additional observations from a re-analysis of the deposited data

Results flagged for a closer look

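Of 60 groups of 4 libraries, 1 for each gene, genotype and day, 2 held a library farther from the others than Dixon's 95% limit, where chance gives about 1 in 20. Both were replicate 1 of Het. *Adamts3* at day 14 had an RQ of 0.00805 in replicate 1 and 0.00544 to 0.00580 in the others. *Loxl3* at day 21 had an RQ of 0.572 in replicate 1 and 0.299 to 0.321 in the others.

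The genotype difference of *Adamts14* changed sign with the day. All 4 Het libraries were below their WT partners at days 8 and 14 and above them at day 21, with mean log2 differences of -0.38, -0.25 and 0.21. The difference between day 21 and day 8 was 0.58 and was not tested by itself. The difference between day 21 and day 14 was 0.46 as a mean over pairs, and its interaction term did not pass in edgeR (log2 0.47, unadjusted p = 0.0151).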

How the results depend on the processing

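Limits are the low counts of *Adamts3*, the separate experiments behind replicates that the labels do not tell apart, and the scale, which leans on 4 genes. Over the single-gene results, *Bmp1*, *Adamts3*, *Pcolce2* and *Loxl1* kept their direction between the genotypes at days 14 and 21 under all alternatives, and the 8 members called with maturation kept theirs. Where a call or direction moved, the cause was not tested.

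With scaling by TMM, DESeq2 size factors and total count, the log2 value of *Adamts14* between the genotypes at days 14 and 21 turned to 0.034, 0.047 and 0.080 (0.0021 without *Actb*, 0.21 at day 21 alone). At day 8 the values near 0 turned as well: *Adamts2* to 0.019, 0.028 and 0.043, *Pcolce* to 0.026, 0.034 and 0.047, *Lox* to 0.046, 0.054 and 0.069, and *Loxl2* to 0.016, 0.023 and 0.037. The change of the Het effect of *Loxl1* from day 8 was -0.012 with TMM. *Adamts3* with maturation was 0.0097 without *Mrfap1*, 0.0059 without *Sdha* and 0.24 in WT alone.

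At day 14 alone and at day 21 alone edgeR called 0 members between the genotypes (5 and 3 at an unadjusted p under 0.05) and 34 (0.185%) and 368 (1.97%) of all genes (3474 and 3976 at an unadjusted p under 0.05), and from day 14 to 21 in Het alone 0 members. At day 8, replicate 1 as a covariate gave 1 call, DESeq2 1 (2.3% of all genes) and the exact permutation test 2. DESeq2 gave 1 call for the change of the Het effect from day 8 (0.409% of all genes). Of all genes at days 14 and 21, edgeR called 1440 higher and 1762 lower in Het, against 2463 and 1485 with TMM, and with maturation 8351 and 3560 against 5601 and 6692.

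Replicate number as a block was a pairing taken from the labels. With it, 5 members were called between the genotypes at days 14 and 21 (23.6% of all genes). At day 8 it called 0 members (285 of all genes, 1.56%), and 0 for the change of the Het effect from day 8 (0.328%). With maturation it called 8 members, against 64.2% of all genes, and from day 14 to 21 it called 3, against 23.1%. Apart from *Loxl3* and *Adamts2*, named above, the block changed no call of a member.

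Leaving out replicates moved the number of members called between the genotypes at days 14 and 21 from 1 (without replicate 2, 3 or 4) to 7 (without replicate 1). It ran from 0 to 3 at day 8 and from 0 to 2 for the change of the Het effect from day 8. For the change of the Het effect from day 14 to 21 it ran from 0 to 1. For the ratio to collagen between the genotypes it ran from 0 to 4. Without replicate 1 the shares of all genes called were 39.4% (genotypes, days 14 and 21) and 18.7% (day 8). They were 4.72% and 0.0661% for the change of the Het effect from day 8 and from day 14 to 21. The shares in the other fits are not given here. The log2 values that changed sign ran from -0.087 to 0.024 (*Adamts14*) and -0.0037 to 0.20 (*Adamts2*) at days 14 and 21; at day 8 from -0.28 to 0.13 (*Adamts2*), -0.11 to 0.046 (*Lox*), -0.38 to 0.20 (*Loxl2*) and -0.60 to 0.26 (*Loxl3*). For the change of the Het effect they ran from -0.049 to 0.37 (*Adamts2*), -0.074 to 0.65 (*Pcolce2*), -0.026 to 0.12 (*Loxl1*), -0.43 to 0.15 (*Loxl2*) and -0.47 to 0.39 (*Loxl3*). With maturation *Adamts3* ran from -0.091 to 0.023, and from day 14 to 21 *Lox* ran from -0.0042 to 0.30, *Loxl2* from -0.10 to 0.19 and *Loxl3* from -0.00063 to 0.26. The ratio of *Pcolce2* to collagen with maturation ran from -0.52 to 0.11.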
